A study of Homo sapiens with 18 samples.

Results

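The collagen genes of BE(2)-m17 cells, a human neuroblastoma line, were followed in RNA-seq data from 3 experiments. Members were the protein-coding Ensembl genes whose symbol has the form COL, number, A, number, which gave 44 of the 57905 Ensembl genes counted and of the 19263 that are protein coding. Each experiment (RNA1, RNA2 and RNA3) compared 3 libraries of ABCC1-overexpressing cells with 3 of empty vector control cells, which makes 18 libraries. Both lines carry a hygromycin-selected APP transgene (pSBbi-Hyg-APP). The control line (Puro) also carries the empty puromycin vector pSBbi-Pur, and the ABCC1 line carries pSBbi-Pur-ABCC1(WT), so that the lines differ in the ABCC1 insert. The vectors insert through the Sleeping Beauty transposase, and the lines were drug-selected pools. For each culture 14000000 cells were plated without antibiotics, and RNA was taken on day 4. RNA1 is labelled with a TruSeq RNA kit and RNA2 and RNA3 with a SMARTer total RNA kit, although another label of RNA1 names a SMARTer kit. According to the study, the repeat experiments used cryopreserved cells and newly transfected cells, but the labels do not say which of RNA2 and RNA3 is which. No label says that the 3 libraries of a group came from separately made lines, so p-values measure the spread between these cultures.

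Collagens are trimers of chains that each hold a long Gly-X-Y repeat. The fibril-forming types make the banded fibrils of connective tissue, the fibril-associated (FACIT) types sit on those fibrils, type IV makes the network of basement membranes and type VI makes beaded filaments around cells. In tumours of the sympathetic nervous system, much collagen is known to come from the stromal cells around the tumour cells. The 44 members were 11 fibril-forming genes, 10 FACIT genes, 6 type IV genes, 5 type VI genes, 4 anchoring and short-chain genes, 4 transmembrane genes and 4 multiplexin or other genes.

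The libraries held 27433393 to 57937653 assigned read pairs in RNA1, 19577853 to 30996228 in RNA2 and 8866994 to 13332413 in RNA3. The ABCC1 insert had 0 to 15 counts in Puro libraries and 51035 to 594404 in ABCC1 libraries. The cells carried their adrenergic neuroblastoma markers (8 of 8 tested in each experiment, summed level 4178 to 7055 CPM, that is counts scaled to a common library size). In RNA1 the endothelial markers CDH5, KDR and TEK and the Schwann cell markers SOX10 and CDH19 had at most 3 counts in every library. The fibroblast markers FAP and POSTN were likewise at 0 or at most 3 counts, whereas other genes of that list were expressed. RNA2 and RNA3 also held reads on olfactory receptor genes, which few tissues use. The mean level over 350 olfactory receptor genes, taken here as background, was 0.0051 CPM per kilobase in Puro cells of RNA1, 0.578 in RNA2 and 1.57 in RNA3. In RNA2 this background was 0.486 to 0.661 in Puro libraries and 0.14, 0.339 and 0.43 in ABCC1 libraries, and ABCC1 replicate 1 stood apart with the lowest value.

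Some collagen genes lie in head-to-head pairs that share a promoter region, and the pairs behaved differently below, so their sequences are shown first. In GRCh37, the build of the files, COL4A1 (13:110801318-110959496, minus strand) faces COL4A2 (13:110958159-111165374, plus strand), and COL4A6 (X:107386780-107682727, minus strand) faces COL4A5 (X:107683074-107940775, plus strand). COL6A1 (21:47401651-47424964) and COL6A2 (21:47518011-47552763) lie in tandem on the plus strand. RefSeq windows of GRCh38.p14 were matched by symbol for 32 of the 44 members, 44 windows in all. In RefSeq the starts of COL4A1 and COL4A2 are 127 bases apart, those of COL4A6 and COL4A5 are 380 bases apart and those of COL4A4 and COL4A3 are 419 bases apart. The 126 bases between the COL4A1 and COL4A2 starts (chr13:110307158-110307283, read on the COL4A2 strand) and the 250 bases before COL6A2 (chr21:46097862-46098111, plus strand) belong to the most abundant collagen transcripts. The 250 bases before COL4A5 (chrX:108439588-108439837, plus strand) and COL4A6 (chrX:108439459-108439708, minus strand) belong to the pair with the steepest rise in RNA1, and they overlap on opposite strands. Capitals mark the motifs GGGCGG (GC box), CCAAT and TATAAA on either strand.
COL4A2: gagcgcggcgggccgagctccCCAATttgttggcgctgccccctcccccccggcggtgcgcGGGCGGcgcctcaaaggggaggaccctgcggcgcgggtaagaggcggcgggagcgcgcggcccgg
COL6A2: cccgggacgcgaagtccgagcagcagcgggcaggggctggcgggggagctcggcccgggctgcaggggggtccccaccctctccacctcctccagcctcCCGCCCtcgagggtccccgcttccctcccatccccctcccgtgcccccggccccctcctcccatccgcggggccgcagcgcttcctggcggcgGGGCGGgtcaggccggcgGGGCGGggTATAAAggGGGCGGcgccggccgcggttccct
COL4A5: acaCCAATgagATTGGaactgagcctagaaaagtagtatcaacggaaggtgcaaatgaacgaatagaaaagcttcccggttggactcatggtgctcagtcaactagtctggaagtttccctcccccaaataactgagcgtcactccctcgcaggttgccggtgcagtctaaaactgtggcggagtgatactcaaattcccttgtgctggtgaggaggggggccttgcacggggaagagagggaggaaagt
COL4A6: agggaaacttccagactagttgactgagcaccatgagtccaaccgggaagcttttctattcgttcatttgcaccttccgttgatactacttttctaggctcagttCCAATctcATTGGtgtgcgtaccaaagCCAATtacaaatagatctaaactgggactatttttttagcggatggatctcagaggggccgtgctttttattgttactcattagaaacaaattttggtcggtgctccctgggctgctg
The stretch between COL4A1 and COL4A2 is 80.2% G and C, with 1 GC box, 1 CCAAT box and no TATAAA. The COL6A2 window is 79.6% G and C, with 4 GC boxes and 1 TATAAA. The COL4A5 and COL4A6 windows are 51.2% and 44% G and C, hold no GC box, and hold 2 and 3 CCAAT boxes. The median over all 35116 windows is 58.0% G and C. GGGCGG occurred in 42.6% of all windows and in 54.5% of the 44 member windows, CCAAT in 32.0% and 27.3%, and TATAAA in 10.7% and 18.2%. These matches describe letters and not binding sites.

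A set of 5 genes carried most of the collagen signal in control cells of RNA1. In Puro cells of RNA1 the highest levels, scaled by exon length, were those of COL4A2 (12.1 ± 0.521 CPM per kilobase, SD, n = 3), COL6A1 (11.8 ± 0.897) and COL6A2 (11.3 ± 0.571). Their ranges over the libraries overlapped, and COL6A2 was the lowest of these genes within each library. COL22A1, a FACIT chain known from tissue junctions, followed at 5.26 ± 0.0462, and COL4A1 at 4.29 ± 0.176. Then came the cartilage FACIT chains COL9A2 (1.45 ± 0.0902) and COL9A3 (1.1 ± 0.14), the fibril chain COL5A2 (0.939 ± 0.0859), COL26A1 (0.613 ± 0.038) and COL5A1 (0.493 ± 0.0205). COL4A1, COL4A2, COL6A1, COL6A2 and COL22A1 together held 85.2% ± 0.708 of the length-scaled collagen signal of Puro cells in RNA1, 46.6% ± 4.8 in RNA2 and 35.6% ± 5.17 in RNA3. The 2 chains of type I collagen, the main fibril of connective tissue, were low in RNA1, with COL1A1 at 20 to 35 counts and COL1A2 at 0 or 1 count in each Puro library. COL15A1 and COL17A1 had 0 counts in the 3 Puro libraries, which does not show that these genes were silent.

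In RNA2 the leading genes of Puro cells were COL6A2 (12.5 ± 0.386 CPM per kilobase), COL4A2 (10.7 ± 2.62), COL22A1 (9.49 ± 0.954), COL6A1 (6.38 ± 0.667) and COL9A2 (4.4 ± 0.624). Then came COL4A1 (2.88 ± 0.44), COL11A2 (2.71 ± 0.462), the FACIT gene COL16A1 (2.62 ± 0.187), the transmembrane gene COL17A1 (2.38 ± 0.32) and COL5A1 (2.25 ± 0.25). RNA3 had the same 10 leading genes in Puro cells, from COL4A2 (16.2 ± 2.91), COL6A2 (15.1 ± 3.56), COL22A1 (11.6 ± 0.907) and COL6A1 (9.31 ± 2.08) down to COL16A1 (6.31 ± 0.376), COL4A1 (6.12 ± 0.661), COL9A2 (5.93 ± 0.53), COL11A2 (5.79 ± 0.623), COL17A1 (5.66 ± 0.647) and COL5A1 (5.02 ± 0.332). COL17A1, at 0 counts in Puro cells of RNA1, stood at 4.11 times the olfactory receptor level in RNA2 and 3.6 times in RNA3. The median level of the collagen genes in Puro cells was 0.0798 CPM per kilobase in RNA1, 1.24 in RNA2 and 2.28 in RNA3, and the olfactory receptor level was higher in the same order. The study and a label of RNA1 give it another kit than RNA2 and RNA3, although another label of RNA1 names a SMARTer kit. Kit and experiment therefore cannot be told apart in these levels.

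**Figure D1:**
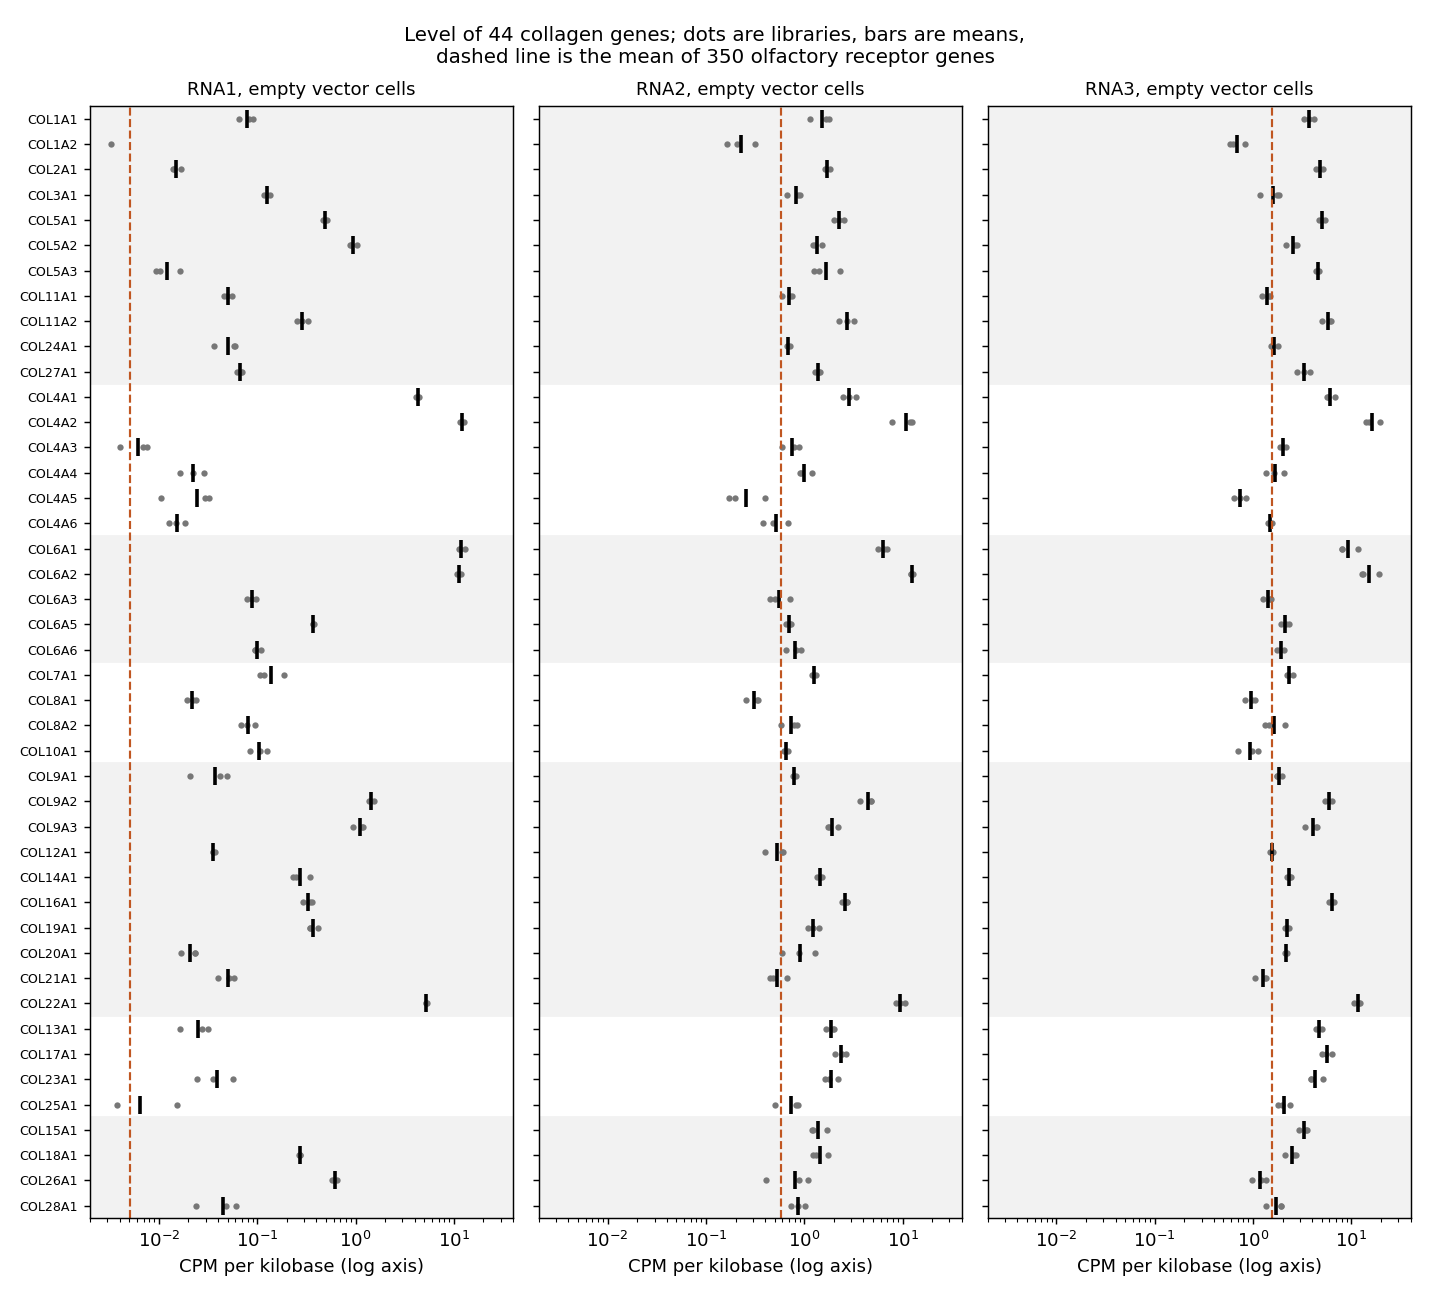
Level of the 44 collagen genes in Puro cells of RNA1, RNA2 and RNA3, in CPM per kilobase of exon on a log axis, grouped by collagen class (shaded bands). Dots are the 3 libraries, bars are their mean, libraries at 0 counts are not drawn, and the dashed line is the mean olfactory receptor level. The 5 leading genes stand far to the right of the line in RNA1, while many of the other genes sit close to it in RNA2 and RNA3.

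Within each experiment, the comparison asks which transcripts differ between ABCC1-overexpressing and empty vector cells. In RNA1 the type IV genes tested and COL6A1 and COL6A2 of type VI rose with ABCC1, while COL22A1, COL14A1 and COL12A1 of the FACIT class, COL10A1 and the fibril gene COL24A1 fell. Of the 44 members, 34 had enough counts to be tested, and 18 of these (52.9%) passed an adjusted p of 0.05 in edgeR's quasi-likelihood test, against 37.6% of all genes tested. Of the 34, 13 rose (38.2%, against 17.9% of all genes) and 5 fell (14.7%, against 19.7%). The shares were not tested against each other, and a low gene passes the filter more readily when 1 group is high, so the shares are not a result about all members. Among the 24 members with at least 10 counts in every library, 8 rose and 2 fell, and 38.1% of all genes so filtered passed (17.8% rose and 20.2% fell). DESeq2 called 12 members (8 higher and 4 lower) and 5283 genes in all. COL1A1, COL4A4, COL7A1, COL11A2, COL14A1 and COL20A1 were not among its calls. The median log2FC of the 34 members was -0.02, and that of all genes was 0.01.

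Of the 6 type IV genes, 5 were tested in RNA1 and all 5 rose. COL4A4, COL4A5 and COL4A6 had fewer than 10 counts in every Puro library and were tested because of their ABCC1 counts, so this count is not a result about the class. With at least 10 counts in every library, COL4A1 and COL4A2 were the type IV genes tested, and both rose. COL4A1 had 1519, 878 and 1078 counts in Puro libraries and 2438, 1364 and 2346 in ABCC1 libraries, which are levels of 4.29 ± 0.176 and 5.32 ± 0.173 CPM per kilobase. COL4A2, whose chain joins that of COL4A1 in the common type IV trimer, went from 12.1 ± 0.521 to 15.2 ± 0.181 CPM per kilobase. The groups did not overlap for either gene, and the differences (log2FC) were 0.31 (SE 0.0528, edgeR adjusted p = 0.00102) and 0.32 (SE 0.0431, adjusted p = 0.000212). The ratio of COL4A2 to COL4A1 levels was 2.83 ± 0.145 in Puro and 2.85 ± 0.06 in ABCC1 cells, so that the pair moved together within the spread of its ratio.

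The X-linked pair was scarce in control cells and rose most steeply. COL4A5 had 4, 7 and 9 counts in Puro libraries and 104, 51 and 76 counts in ABCC1 libraries. COL4A6 had 8, 4 and 4 counts in Puro libraries and 57, 25 and 40 counts in ABCC1 libraries. Neither gene's groups overlapped, with log2FC of 2.98 for COL4A5 (SE 0.317, edgeR adjusted p = 4.4e-05) and 2.39 for COL4A6 (SE 0.313, adjusted p = 0.000188). Even so, COL4A5 reached 0.18 ± 0.0302 CPM per kilobase in ABCC1 cells, far under COL4A2. COL4A4, from the other head-to-head pair, rose by a log2FC of 1.01 (adjusted p = 0.0301), a call lost without ABCC1 replicate 1 or 2 or without Puro replicate 1 or 2 (adjusted p up to 0.191 over all alternatives). Its partner COL4A3 had 1 to 7 counts per library and was not tested.

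COL6A1 and COL6A2, which encode chains of the type VI filament, rose in RNA1. COL6A2 had 2772, 1568 and 1921 counts in Puro libraries and 4978, 2694 and 5134 in ABCC1 libraries, or 11.3 ± 0.571 and 16.1 ± 0.513 CPM per kilobase. COL6A1 went from 11.8 ± 0.897 to 13.99 ± 0.431 CPM per kilobase. Groups did not overlap for either gene, and log2FC was 0.51 for COL6A2 (SE 0.0495, edgeR adjusted p = 2.15e-05) and 0.24 for COL6A1 (SE 0.0569, adjusted p = 0.00754). The ratio of COL6A2 to COL6A1 levels was 0.952 ± 0.033 in Puro and 1.15 ± 0.0176 in ABCC1 cells, without overlap. With 3 libraries a side, an exact permutation test cannot go below p = 0.1, so this ratio was not tested further. The other type VI genes, COL6A3, COL6A5 and COL6A6, had log2FC of -0.32, -0.06 and -0.54 and did not pass the test.

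The strongest decrease by p-value was that of COL22A1. Its counts were 1811, 1122 and 1290 in Puro libraries of RNA1 and 899, 504 and 788 in ABCC1 libraries. The level fell from 5.26 ± 0.0462 to 1.92 ± 0.161 CPM per kilobase, the groups stood far apart, and log2FC was -1.46 (SE 0.0666, edgeR adjusted p = 8.64e-08). The share of COL22A1 in the length-scaled collagen signal was 10.0% ± 0.301 in Puro and 3.17% ± 0.254 in ABCC1 cells. COL14A1, another FACIT gene, had 86, 80 and 67 counts in Puro libraries and 94, 54 and 97 in ABCC1 libraries, a log2FC of -0.46 (adjusted p = 0.044) that was lost without ABCC1 replicate 1 or 2 or without Puro replicate 2 or 3 (adjusted p up to 0.163 over all alternatives).

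Genes with few counts made up the rest of the decreases. COL12A1, COL10A1 and COL24A1 had fewer than 10 counts in every ABCC1 library, were tested because of their Puro counts, and were not tested with at least 10 counts required in every library. COL12A1, a FACIT gene of tendon and skin, had 20, 12 and 14 counts in Puro libraries and 3, 3 and 5 in ABCC1 libraries (log2FC -2.54, SE 0.354, edgeR adjusted p = 0.000291). COL10A1, the short-chain collagen of growth plate cartilage, had 14, 11 and 15 counts against 6, 1 and 2 (log2FC -2.62, SE 0.46, adjusted p = 0.00121). COL24A1, a minor fibril gene, had 15, 15 and 18 counts against 9, 1 and 8 (log2FC -1.93, SE 0.417, adjusted p = 0.0043). In these 3 genes the ABCC1 libraries lay below the Puro libraries without overlap after scaling for depth. Of the COL10A1 exon bases, 11.48% also belong to an antisense gene, and the counts used no strand.

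Another 6 genes rose in RNA1. COL5A1, which encodes a chain that regulates fibril width, rose by a log2FC of 0.54 (SE 0.104, edgeR adjusted p = 0.00217) from 0.493 ± 0.0205 to 0.713 ± 0.0916 CPM per kilobase. COL18A1, the multiplexin that holds endostatin, rose by 0.58 (SE 0.165, adjusted p = 0.0178), and 16.43% of its exon bases also belong to SLC19A1 on the other strand. COL11A2 rose by 0.47 (adjusted p = 0.0179), COL1A1 by 0.83 (adjusted p = 0.0301), the FACIT gene COL20A1 by 1.03 (adjusted p = 0.0459) and COL7A1, the anchoring fibril gene of skin, by 0.54 (adjusted p = 0.0489). COL20A1 had 11, 5 and 8 counts in Puro libraries and 18, 15 and 38 in ABCC1 libraries, was tested because of its ABCC1 counts, and was not tested with at least 10 counts required in every library. These 5 calls did not survive every omission of 1 library. COL18A1 was lost without any 1 of the Puro libraries, COL11A2 without Puro replicate 1 or 3, and COL1A1 without ABCC1 replicate 3 or any 1 Puro library (highest adjusted p over all alternatives 0.068, 0.0996 and 0.116). COL20A1 was lost in 5 of the 6 omissions, all but that of ABCC1 replicate 1, and COL7A1 was lost without ABCC1 replicate 1 or 3 or Puro replicate 1 or 3 (highest adjusted p 0.183 and 0.201). The genes not tested in RNA1 were COL1A2, COL2A1, COL4A3, COL5A3, COL8A1, COL13A1, COL15A1, COL17A1, COL23A1 and COL25A1, with 0 to 12 counts per library, among them all 4 transmembrane genes.

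Marker lists of cell types also differed between the lines in RNA1. The summed level of the fibroblast markers was 316.1 to 328.9 CPM in Puro libraries and 398.6 to 411.9 CPM in ABCC1 libraries, and of the 6 tested, 5 rose (DCN, PDGFRA, PDGFRB, LUM and THY1) and FBN1 fell, against 17.9% of all genes higher and 19.7% lower. FAP had no count and POSTN at most 3 counts in any library of RNA1. Of the 8 adrenergic markers, MYCN and TH rose (log2FC 0.45 and 0.46) and DBH, ISL1, PHOX2A and GATA3 fell (log2FC -0.83, -0.56, -0.48 and -0.33, edgeR adjusted p up to 0.00746 among these 6). The part of either marker list in the collagen differences was not tested.

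**Figure D2:**
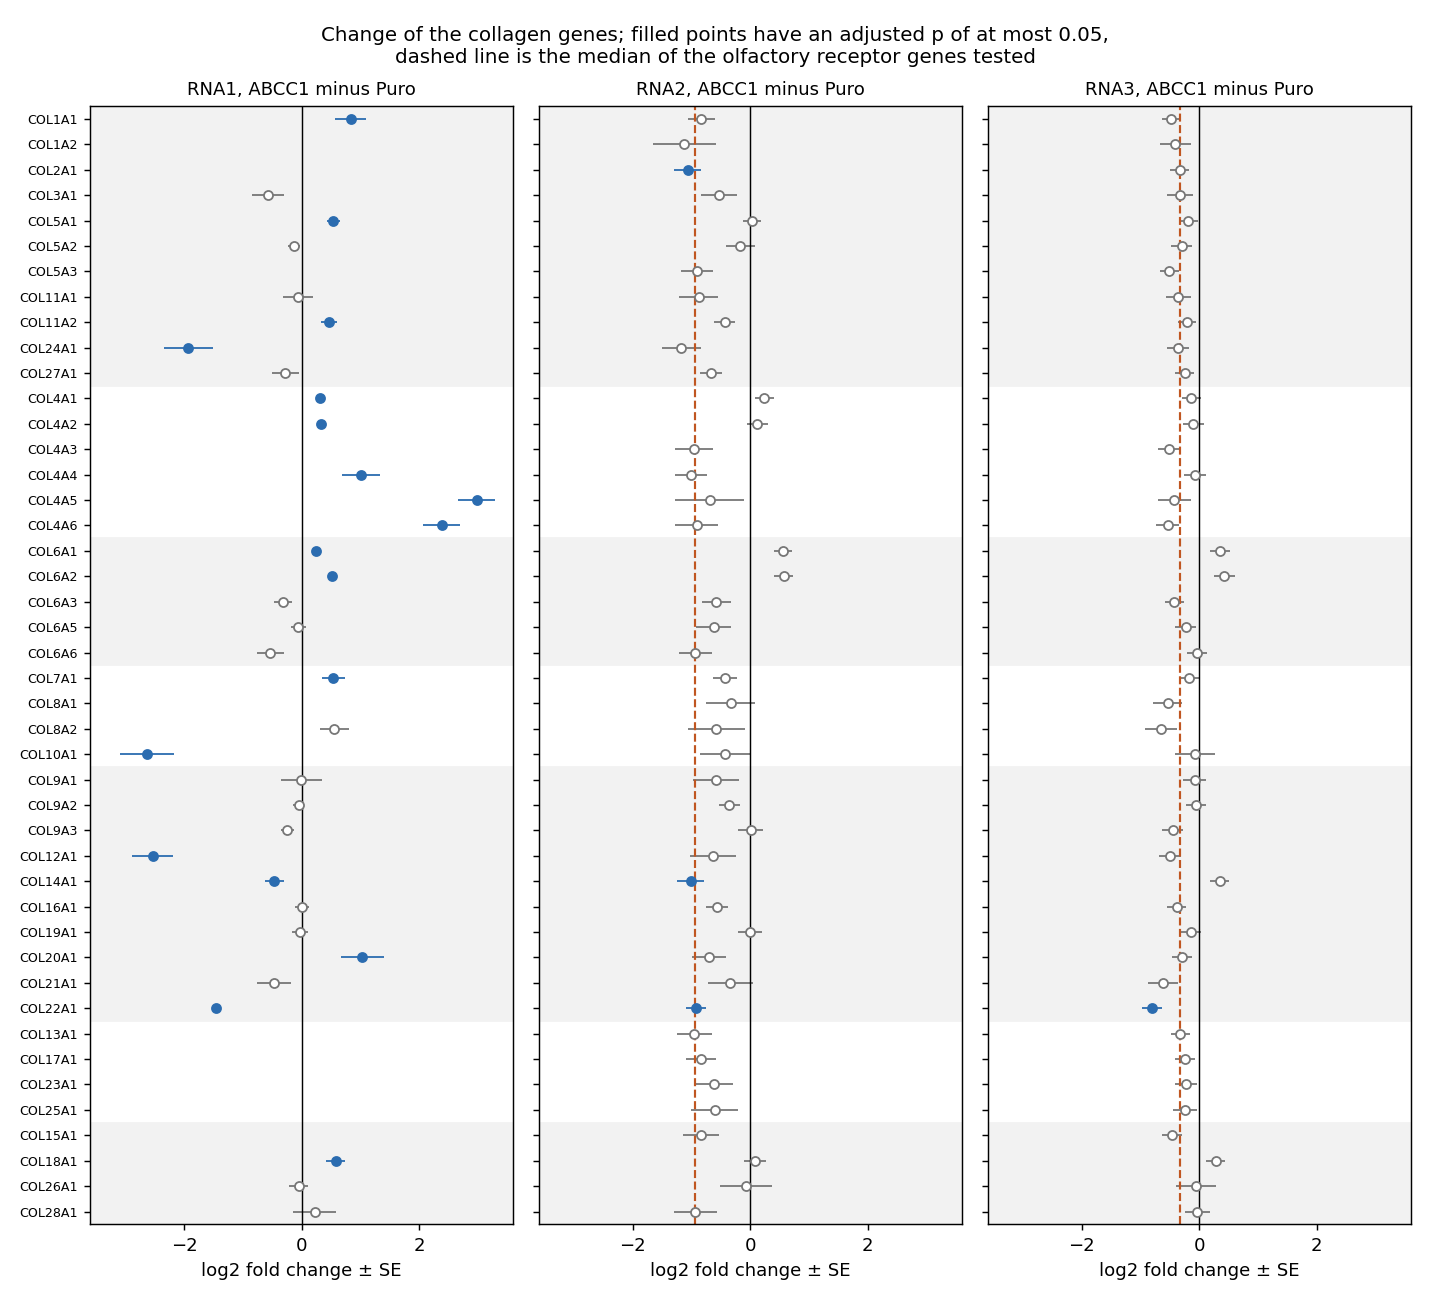
log2 fold change of each collagen gene (ABCC1 minus Puro, ± SE, n = 3 a side) in RNA1, RNA2 and RNA3, with genes not tested left blank. Filled points have an adjusted p of at most 0.05, and the dashed line is the median of the olfactory receptor genes tested (-0.93 in RNA2, -0.32 in RNA3). Filled points lie on both sides of 0 in RNA1, while RNA2 holds 3 and RNA3 holds 1, all below 0, and most open points of RNA2 and RNA3 lie to the left of 0.

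In RNA2 and RNA3 the collagen increases of RNA1 did not pass the test, and the decrease of COL22A1 did. All 44 members were tested in both. In RNA2, 3 members passed (6.82%, against 1.7% of all genes tested), and all 3 fell (against 0.458% of all genes). In RNA3, 1 member passed (2.27%, against 2.8%), and it fell (against 0.767%). None rose in either experiment by edgeR's adjusted p with TMM scaling and the default filter, against 1.25% of all genes in RNA2 and 2.03% in RNA3. At an unadjusted p under 0.05, 2 members were higher and 22 lower in RNA2, where 10.6% of all genes were higher and 10.7% lower. In RNA3, 3 were higher and 14 lower, against 7.58% and 7.63% of all genes. DESeq2 called 2 higher in RNA2 (COL6A1 and COL6A2) and 1 in RNA3 (COL6A2), against 16.2% and 12.9% of all genes to which it gave an adjusted p.

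COL22A1 fell in each of the 3 experiments. In RNA2 its counts were 1529, 2466 and 1528 in Puro libraries and 831, 943 and 1323 in ABCC1 libraries, or 9.49 ± 0.954 and 4.99 ± 0.823 CPM per kilobase (log2FC -0.93, SE 0.168, edgeR adjusted p = 0.00807). In RNA3 they were 1031, 1070 and 800 against 679, 622 and 561, or 11.6 ± 0.907 and 6.67 ± 0.75 CPM per kilobase (log2FC -0.80, SE 0.169, adjusted p = 0.00133). Levels of the 2 lines did not overlap in any experiment, which makes the decrease visible in 9 of 9 ABCC1 libraries. The olfactory receptor level fell alongside, by a log2 ratio of 0.93 in RNA2, 0.33 in RNA3 and 0.31 in RNA1. After the olfactory receptor level of the same library was subtracted, a step chosen after the values were seen, COL22A1 was 8.91 ± 1.04 in Puro and 4.69 ± 0.686 in ABCC1 cells of RNA2 and 10.0 ± 0.978 and 5.42 ± 0.619 in RNA3. As a multiple of that level, COL22A1 stood at 16.41 in Puro and 16.49 in ABCC1 cells of RNA2, and at 7.38 and 5.35 in RNA3. With the olfactory receptor level as a covariate in the fit, log2FC was -0.70 in RNA2 (edgeR adjusted p = 0.548) and -0.65 in RNA3 (adjusted p = 0.29). The call was also lost in RNA2 without ABCC1 replicate 2 or Puro replicate 3, and in RNA3 without ABCC1 replicate 3. The interaction test for a difference of the decrease between experiments gave an unadjusted p of 0.0117 and an edgeR adjusted p of 0.31, which misses the threshold.

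The other calls of RNA2 were COL2A1 and COL14A1. COL2A1, the main fibril gene of cartilage, had 244, 360 and 229 counts in Puro libraries and 112, 118 and 200 in ABCC1 libraries (log2FC -1.07, SE 0.235, edgeR adjusted p = 0.0254). It had 3 to 11 counts per library in RNA1 and was not tested there, and its log2FC in RNA3 was -0.33 (adjusted p = 0.315). COL14A1 had 281, 385 and 241 counts against 117, 153 and 211 in RNA2 (log2FC -1.01, SE 0.227, adjusted p = 0.027), and 233, 209 and 197 against 295, 283 and 337 in RNA3 (log2FC 0.35, adjusted p = 0.28). In RNA2 COL2A1 and COL14A1 stood at 2.95 and 2.48 times the olfactory receptor level in Puro cells and at 2.69 and 2.34 times in ABCC1 cells. After that level was subtracted, COL2A1 was 1.13 ± 0.187 CPM per kilobase in Puro and 0.51 ± 0.0338 in ABCC1 cells of RNA2. COL14A1 was 0.853 ± 0.138 and 0.406 ± 0.0615 in RNA2, and 0.774 ± 0.0639 and 1.74 ± 0.307 in RNA3. The COL14A1 call of RNA2 was lost without ABCC1 replicate 1, the library of lowest background, and both calls were lost without ABCC1 replicate 2 or without any 1 of the Puro libraries. With the olfactory receptor level as a covariate, log2FC was -0.78 for COL2A1 (edgeR adjusted p = 0.667) and -0.65 for COL14A1 (adjusted p = 0.747).

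Many members of RNA2 and RNA3 lay near the background, and most had a log2FC below 0. In RNA2, 37 of 44 members had a log2FC below 0 (35 with DESeq2 or with size factors by relative log expression, RLE), and in RNA3, 40 did (34 with DESeq2, 36 with RLE). The median log2FC of the members was -0.61 in RNA2 and -0.27 in RNA3. That of all genes was -0.19 and -0.09, and that of the olfactory receptor genes tested was -0.93 and -0.32. Under RLE the median of all genes in RNA2 moved by 0.11, to -0.08. In RNA2, 20 members were under 2 times the olfactory receptor level in both lines, and 23 were at or above 2 times in both. In RNA3 these numbers were 24 and 17. Among the marker lists, the endothelial gene VWF fell in RNA2 (log2FC -1.01, edgeR adjusted p = 0.0435), and of the 8 adrenergic markers TH rose and DBH and PHOX2A fell in RNA3 (log2FC 0.63, -0.63 and -0.68), against 1.7% and 2.8% of all genes called in RNA2 and RNA3. The part of background reads and of marker genes in the collagen values was not tested.

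COL6A1 and COL6A2 were the members with the highest positive log2FC in RNA2 and RNA3. In RNA2 COL6A2 had 1495, 2086 and 1376 counts in Puro libraries and 2987, 2147 and 2719 in ABCC1 libraries, and COL6A1 had 849, 1036 and 632 against 1520, 1062 and 1374. The levels did not overlap for either gene, and log2FC was 0.57 and 0.56 (SE 0.165 and 0.161), with edgeR adjusted p = 0.0684 for both. Other edgeR settings called COL6A1 higher in RNA2 with RLE scaling (adjusted p = 0.0492) and without ABCC1 replicate 3 (0.0485), COL6A2 with at least 10 counts in every library (0.0471), and both with no filter (0.0375 and 0.0386). In RNA3 log2FC was 0.43 for COL6A2 (SE 0.177, adjusted p = 0.197) and 0.36 for COL6A1 (SE 0.167, adjusted p = 0.274). There Puro replicate 2 stood above the other 2 control libraries (19.24 against 12.99 and 13.15 CPM per kilobase for COL6A2), and without it both genes passed the threshold among 7 members called. COL6A2 also passed in RNA3 when protein-coding genes alone were tested (adjusted p = 0.0303). In both experiments the background was lower in ABCC1 cells, and its part in these values was not tested. The ratio of COL6A2 to COL6A1 was 1.97 ± 0.208 in Puro and 1.97 ± 0.0291 in ABCC1 cells of RNA2, and 1.62 ± 0.0192 and 1.71 ± 0.0669 in RNA3, where the groups overlapped. Of the 13 members that rose in RNA1, COL6A1, COL6A2 and COL18A1 had a log2FC above 0 in both other experiments. COL4A1 and COL4A2 had log2FC of 0.24 and 0.12 in RNA2 and -0.13 and -0.10 in RNA3, with adjusted p of 0.403 to 0.85. Of the 5 that fell in RNA1, all 5 were below 0 in RNA2 and 4 in RNA3, experiments in which most members were.

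**Figure D3:**
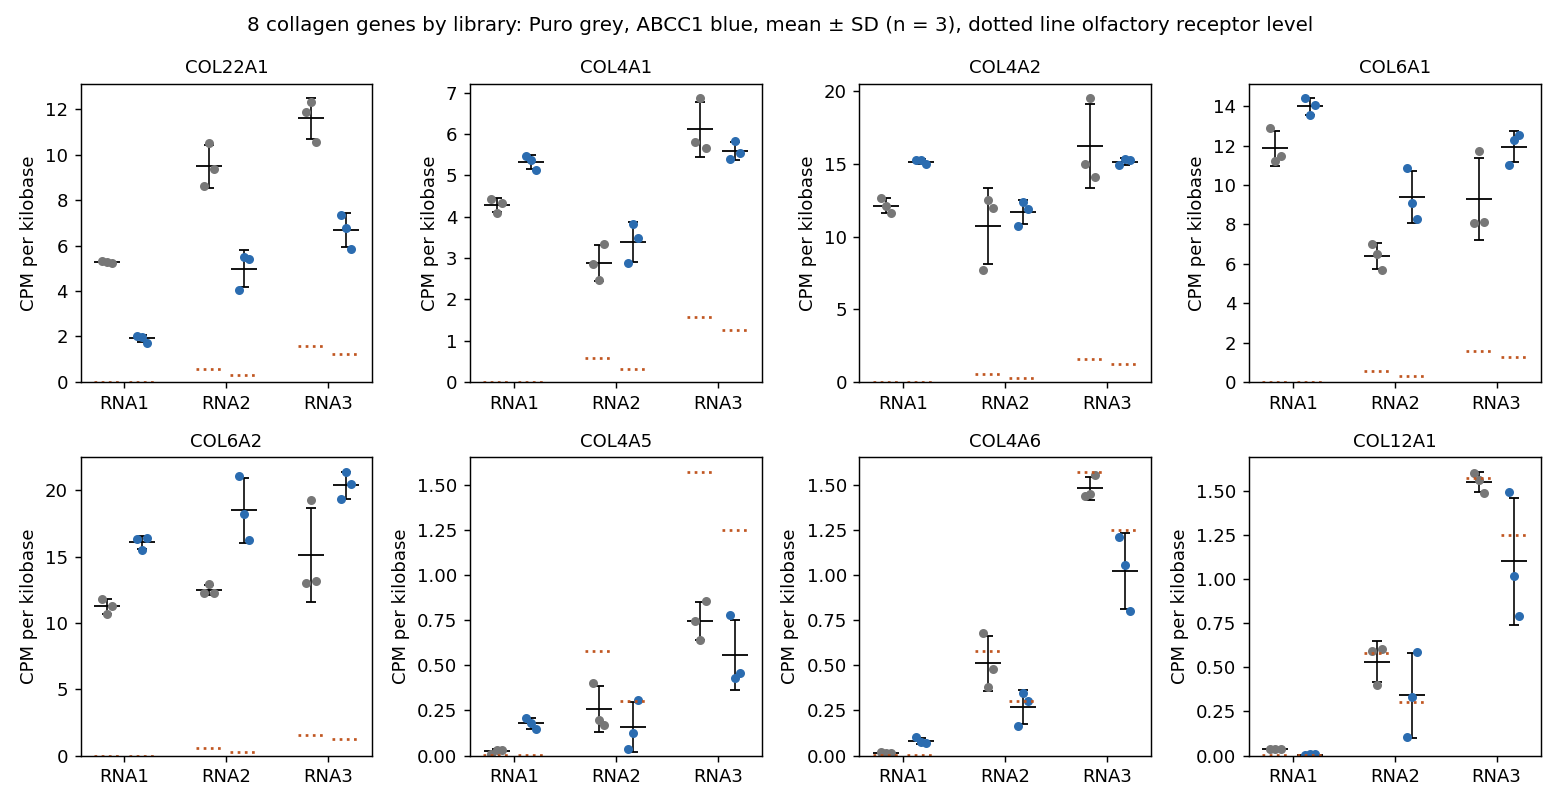
Levels of 8 collagen genes in the 18 libraries, in CPM per kilobase of exon on linear axes from 0, with Puro libraries in grey, ABCC1 libraries in blue, mean ± SD (n = 3) in black and the olfactory receptor level of each group as a dotted line. COL22A1 lies lower in ABCC1 cells of all 3 experiments and COL6A2 higher, without overlap of the groups (adjusted p 0.0684 and 0.197 for COL6A2 in RNA2 and RNA3), whereas the group means of COL4A5 and COL4A6 in RNA2 and RNA3 lie below the dotted line.

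**Figure D4:**
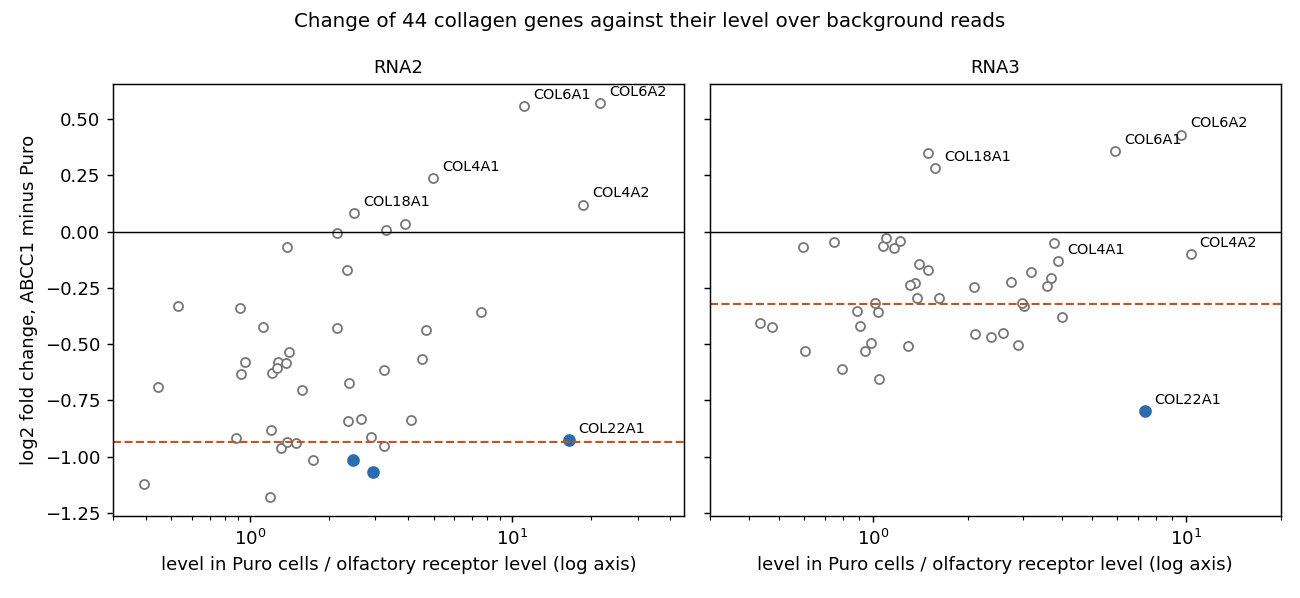
log2 fold change (ABCC1 minus Puro) of the 44 collagen genes against their level in Puro cells, given as a multiple of the olfactory receptor level on a log axis, for RNA2 and RNA3. Filled points have an adjusted p of at most 0.05, and the dashed line is the median of the olfactory receptor genes tested. The genes at more than 10 times the background in RNA2 divide into COL22A1 at -0.93 and COL4A2, COL6A1 and COL6A2 above 0.

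Whether the effect of ABCC1 differed between experiments was tested over all 18 libraries. That fit used 1 estimate of the spread of a gene for all groups. The common coefficient of variation between replicates, however, was 5.67% in RNA1, 35.3% in RNA2 and 19.7% in RNA3, which limits the interaction p-values. The interaction passed for 6 of 44 members (13.6%, against 1.19% of all genes tested), COL4A6, COL4A5, COL14A1, COL1A1, COL4A4 and COL11A2. COL4A5 and COL4A6 had log2FC of 2.98 and 2.39 in RNA1, of -0.69 and -0.92 in RNA2 and of -0.42 and -0.53 in RNA3 (edgeR interaction adjusted p = 0.00024 and 6.3e-06). In RNA2 and RNA3 COL4A5 was at 0.445 and 0.474 times the olfactory receptor level of Puro cells, and COL4A6 at 0.885 and 0.941 times. The rise of COL4A5 in RNA1 spanned 0.0242 to 0.18 CPM per kilobase, below the olfactory receptor level of every group in RNA2 and RNA3 (0.303 to 1.57). The part of background reads in the difference between experiments was not tested. COL1A1 (0.83, -0.83 and -0.47 in RNA1, RNA2 and RNA3) and COL4A4 (1.01, -1.01 and -0.07) had the same pattern of signs. COL14A1 fell in RNA1 and RNA2 and had a positive log2FC in RNA3.

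Enzymes that build collagen moved in both directions in RNA1. Of 16 genes for collagen modification and folding tested, 6 rose and 5 fell (68.8% called). The background for this and the 3 lists that follow was 37.6% of all genes called in RNA1, with 17.9% higher and 19.7% lower, and no list was tested against it. P3H2, a prolyl 3-hydroxylase, fell by 1.00 on the log2 scale (edgeR adjusted p = 0.00218), and P4HA2, a subunit of prolyl 4-hydroxylase, fell by 0.68 (adjusted p = 5.86e-06). PLOD1, a lysyl hydroxylase, rose by 0.38 (adjusted p = 6.49e-05). In RNA2 P4HA2 was the gene of this list that passed, from 34.0 ± 5.4 to 21.6 ± 3.84 CPM (log2FC -0.65, adjusted p = 0.048), at 6.92 and 8.4 times the olfactory receptor level in Puro and ABCC1 cells. Its log2FC in RNA3 was -0.42 (adjusted p = 0.167).

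Of 13 genes for procollagen cleavage and cross-linking, 3 rose and 2 fell in RNA1 (38.5% called, near the background). TLL1, a tolloid-like protease that trims procollagen, had 0, 1 and 0 counts in Puro libraries and 132, 70 and 122 in ABCC1 libraries, a ratio of 226 with an exact 95% interval of 40.2 to 8940 that covers counting error. In RNA2 and RNA3 TLL1 had 39 to 94 counts in Puro and ABCC1 libraries other than ABCC1 replicate 1 of RNA2, which had 22, and log2FC of -0.37 and 0.05 (edgeR adjusted p = 0.678 and 0.955). LOXL4, a lysyl oxidase-like enzyme, fell by 0.64 (adjusted p = 0.00537), and ADAMTS3, a procollagen N-proteinase, rose by 0.43 (adjusted p = 0.0235). In RNA2 ADAMTS14, another procollagen N-proteinase, fell by 0.76 (adjusted p = 0.0358), at 4.91 and 5.54 times the olfactory receptor level in Puro and ABCC1 cells. Its log2FC was -0.29 in RNA1 (edgeR adjusted p = 0.043) and -0.45 in RNA3 (adjusted p = 0.132).

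Of 8 collagen receptor genes tested in RNA1, 3 rose and 4 fell (87.5% called). ADGRG1, an adhesion receptor for type III collagen, fell by 1.13 (edgeR adjusted p = 6.72e-05) and ITGA11, an integrin chain that binds fibrillar collagen, fell by 0.80 (adjusted p = 1.2e-05). ITGA10, another collagen-binding integrin chain, rose by 0.73 (adjusted p = 0.00137). Of 17 basement membrane partners, 5 rose and 4 fell (52.9% called). LAMA2, a laminin alpha chain, fell from 5.85 ± 0.579 to 0.921 ± 0.13 CPM (log2FC -2.68, adjusted p = 2.64e-07), while LAMC3 and LAMB3 rose by 1.18 and 0.84 (adjusted p = 8.44e-05 and 0.0153). In RNA2 LAMA2 also fell (log2FC -1.31, adjusted p = 0.0251), at 2.12 and 1.63 times the olfactory receptor level in Puro and ABCC1 cells. In RNA3 no gene of the 4 lists passed edgeR's test among 56 tested (against 2.8% of all genes), and 16 had an unadjusted p under 0.05 (28.6%, against 15.2%). DESeq2 called 3 of the 56 in RNA3 (5.36%, against 14.2% of the 11250 genes to which it gave an adjusted p). In RNA2 edgeR called 3 of the 56 (5.36%, against 1.7%), all lower. DESeq2 called 13 of the 56 there (23.2%, against 18.5% of the 15359 genes to which it gave an adjusted p). Of these 13, 10 were higher (17.9% of the 56, against 16.2% of the 15359).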

How the data were processed

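The authors aligned reads to GRCh37 (STAR 2.7.3a) and counted read pairs over the exons of each Ensembl 74 gene without regard to strand (featureCounts 2.0.0), and the deposited values are these raw counts, with vector and spike-in sequences among the rows. Symbols and gene types came from GENCODE 29 by gene ID. Here edgeR 4.0.16 (quasi-likelihood F-test, robust, TMM scaling, default filter at a minimum count of 10) compared the lines within each experiment, two-sided, with Benjamini-Hochberg adjustment over all Ensembl genes tested. Levels are TMM-scaled CPM per kilobase of exon. The 2 lines' effects were compared between experiments by interaction terms. DESeq2 1.42.0, other scalings and filters, a replicate block, a background covariate and the omission of each library were alternatives. The pipeline was tested on simulated data. No 2 libraries of a group agreed within counting noise (chi-square per degree of freedom 1.53 to 25.8). The lowest value was that of ABCC1 replicates 1 and 2 of RNA1 (1.53), which stood at 23.98 and 17.93 against replicate 3. Those 2 libraries were thus close to counting noise, and how far they are separate cultures was not tested. Members and lists were chosen with earlier results of these data known. Named were all members past the threshold, the 10 highest levels per experiment and at most 3 called genes per related list in each experiment, with some of their values in the other experiments.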

Additional observations from a re-analysis of the deposited data

Results flagged for a closer look

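The effect of ABCC1 overexpression differed between the 3 experiments for 6 collagen genes by the interaction test of edgeR over 18 libraries. The adjusted p was 6.3e-06 for COL4A6, 0.00024 for COL4A5, 0.00135 for COL14A1, 0.00376 for COL1A1, 0.00709 for COL4A4 and 0.0473 for COL11A2. COL4A6, COL4A5, COL14A1 and COL4A4 passed under every alternative that gave a value, with a highest adjusted p of 0.000186, 0.00647, 0.0112 and 0.0421. With at least 10 counts required in every library, COL4A6, COL4A5 and COL4A4 were not tested. COL1A1 passed in 22 of 23 alternatives and missed without ABCC1 replicate 3 of RNA1 (adjusted p = 0.0867). COL11A2 passed in 6 of 23, with adjusted p from 0.0221 to 0.251. For COL4A6, COL4A5, COL4A4, COL1A1 and COL11A2 log2FC was above 0 in RNA1 and below 0 in RNA2 and RNA3. In RNA2 and RNA3 COL4A6 and COL4A5 were on average below the olfactory receptor level in Puro cells, and COL4A4 was 1.74 and 1.07 times that level. COL1A1 stood at 2.64 and 2.38 times, COL11A2 at 4.69 and 3.69 times and COL14A1 at 2.48 and 1.49 times. COL4A6 was above the level of its own library in 3 of 6 libraries of RNA2. The part of the background, of the kit and of the cell pool in these differences was not tested, and kit and experiment cannot be told apart.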

How the results depend on the processing

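Of 261 recomputed values for 22 called collagen differences, 206 stayed past the threshold, 55 did not and 0 reversed. The number of collagen genes called in RNA1 (18) was 12 with DESeq2 and 12 to 16 with each library left out in turn. It was 10 with at least 10 counts in every library, where 24 members were tested. Over all genes, the 6382 calls of RNA1 became 5283 with DESeq2 and 4663 to 7827 with each library left out. In RNA2 the 3 collagen calls became 8 with DESeq2, 6 with RLE scaling, 11 with no filter, 12 with 10 counts in every library, 7 among protein-coding genes, 0 with the background covariate, and 0 to 12 without 1 library (0 without ABCC1 replicate 2 or Puro replicate 3, 12 without ABCC1 replicate 3). The 581 calls over all genes became 2848, 1086, 1399, 1364 and 12 under DESeq2, RLE, no filter, 10 counts everywhere and the covariate, and 5 to 1358 without 1 library. In RNA3 the 1 collagen call became 2 with DESeq2 or 10 counts everywhere, 5 among protein-coding genes, 0 with the covariate, and 0 to 7 without 1 library (0 without ABCC1 replicate 3, 7 without Puro replicate 2). Over all genes 1021 became 1597, 1725, 1899 and 140, and 394 to 2759. The interaction count over collagens (6) was 4 with 10 counts everywhere, where 24 members were tested, and 4 to 9 without 1 library. Over all genes 550 became 877 with DESeq2, 356 with 10 counts everywhere and 334 to 1111 without 1 library. With the replicate block, 14, 8, 4 and 5 collagens (RNA1, RNA2, RNA3, interaction) and 5356, 708, 1884 and 390 genes passed, but same-numbered libraries correlated by -0.041, -0.061 and 0.045 on average in RNA1, RNA2 and RNA3, so the numbers were not taken as pairs. The cause of these changes was not tested. Higher calls were 73.1% of all calls in RNA2 and 72.6% in RNA3, against 72.2% and 82.9% with RLE and 87.3% and 91.0% with DESeq2. The 10 highest collagen levels were the same 10 by TPM. RNA3 was the shallowest experiment and RNA2 the one of widest spread between replicates (common biological coefficient of variation 35.3%, against 19.7% in RNA3 and 5.67% in RNA1), and a missed call in RNA2 or RNA3 does not show that a gene was unchanged.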
